A study of Mus musculus with 9 samples.

Results

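The myostatin, activin and TGF-beta axis was followed through 3 stages of mouse satellite cells, the stem cells of skeletal muscle. Its 10 genes were taken by symbol from a table of 45706 genes. They were the ligand genes Mstn, Inhba, Tgfb1, Tgfb2 and Tgfb3, the antagonist gene Fst, and the receptor genes Acvr2a, Acvr2b, Tgfbr1 and Tgfbr2. All 10 were found once and all 10 passed the filter on low values. Mstn and Inhba passed it through the 3 myotube libraries, since each had just 1 other library at 10 or more. Cells came from C57Bl6 wild-type mice of 12 to 20 weeks and were sampled freshly isolated from muscle, proliferating, or as myotubes, with 3 samples from different animals per stage. Proliferating cells had been cultured for at least 3 days with human FGF-2 (2.5 ng/ml), a growth factor for myoblasts, and 20% fetal calf serum. Myotubes, the multinucleated cells formed when myoblasts fuse, were made by a further 6 days in 2% horse serum. Stage, medium and time in culture changed together and cannot be told apart.

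Myostatin and activin A, a dimer of the Inhba product, are secreted ligands that bind the type II receptors Acvr2a and Acvr2b and signal through the transcription factors Smad2 and Smad3. Myostatin is best known as a brake on muscle growth, and follistatin, the Fst product, binds and neutralises both myostatin and activins. The 3 TGF-beta ligands act on the same Smads through a different receptor pair, Tgfbr2 and Tgfbr1. They are released in a latent form, and TGF-beta is known to restrain the differentiation of cultured myoblasts.

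The genes are spread over the genome. On GRCm38 (GENCODE vM21) Mstn lay on chromosome 1 (53061640 to 53068079) and Tgfb2 on the same chromosome (186622792 to 186705989). Inhba (16011851 to 16031621) and Fst (114452290 to 114458951) lay on chromosome 13, and Acvr2b (119402118 to 119434995) and Tgfbr2 (116084293 to 116175360) on chromosome 9. Tgfb1 was on chromosome 7 (25687002 to 25705077), Tgfb3 on chromosome 12 (86056745 to 86079041), Acvr2a on chromosome 2 (48814109 to 48903269) and Tgfbr1 on chromosome 4 (47353222 to 47414931). Exons of Acvr2a overlap those of Orc4, and exons of Fst, Tgfb2 and Tgfb3 overlap those of non-coding genes, in each case on the opposite strand. Whether counting used the strand is not given in the sources, so reads of these 4 genes and of their partners may not be separated. Orc4, a replication gene, reached 1957 normalized read counts and the partners of Tgfb2 and Tgfb3 with a row in the table reached 22 and 102.

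The promoters of the ligand genes differ in kind, and those of the 4 ligand genes with an entry in the promoter table are shown, since the levels of these genes are compared below. Each run is the 250 bases before a RefSeq start site on GRCm38.p6, read along the gene from 5′ to 3′. Capitals mark E-boxes (CANNTG), a broad motif of which myogenic factors such as MyoD and myogenin can bind some forms. The windows are chr1:53061390-53061639 (plus strand) for Mstn, chr13:16011601-16011850 (plus) for Inhba, chr7:25686752-25687001 (plus) for Tgfb1 and chr1:186705990-186706239 (minus) for Tgfb2.
Mstn: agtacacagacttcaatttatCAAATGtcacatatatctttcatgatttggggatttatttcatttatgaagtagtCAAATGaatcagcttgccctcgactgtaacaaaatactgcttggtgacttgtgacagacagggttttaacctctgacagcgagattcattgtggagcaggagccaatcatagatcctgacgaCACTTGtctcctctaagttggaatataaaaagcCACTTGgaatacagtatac
Inhba: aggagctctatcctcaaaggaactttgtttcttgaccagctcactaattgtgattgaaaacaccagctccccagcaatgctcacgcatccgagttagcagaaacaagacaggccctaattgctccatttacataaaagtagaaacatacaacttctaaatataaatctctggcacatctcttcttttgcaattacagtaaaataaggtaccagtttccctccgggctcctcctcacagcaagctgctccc
Tgfb1: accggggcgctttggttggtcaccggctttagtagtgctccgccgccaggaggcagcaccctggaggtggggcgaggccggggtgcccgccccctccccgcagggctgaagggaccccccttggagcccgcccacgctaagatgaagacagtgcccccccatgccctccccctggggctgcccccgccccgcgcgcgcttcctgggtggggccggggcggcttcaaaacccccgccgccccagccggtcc
Tgfb2: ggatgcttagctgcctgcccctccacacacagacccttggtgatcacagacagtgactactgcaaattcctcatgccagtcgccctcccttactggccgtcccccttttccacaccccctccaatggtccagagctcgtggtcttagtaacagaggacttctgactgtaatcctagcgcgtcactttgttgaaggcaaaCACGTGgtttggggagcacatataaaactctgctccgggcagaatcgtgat
The Mstn window held 4 E-boxes, at positions -229, -174, -52 and -19 from the start site, and 38.4% of its bases were G or C. Tgfb2 had 1 E-box at -51, of the form CACGTG, and a GC content of 53.6%. Neither Tgfb1, with 75.2% G or C, nor Inhba, with 43.2%, had one. Of the 10 genes 8 matched the promoter table, with 9 windows because Tgfbr1 had an alternative start. An E-box was in 3 of the 9 windows (Mstn, Tgfb2 and the alternative start of Tgfbr1), against 66.2% of 32851 promoter windows of that length. Both strands were searched for each motif. The AP-1 motif TGANTCA occurred once, in Mstn, where it overlapped the E-box at -174, and in 6.7% of all windows. The short Smad motif CAGAC was in 6 of the 9 windows and in 42.2% of all. None of the 9 held the MyoD-type E-box CAGCTG, the CRE TGACGTCA or the FoxO motif GTAAACA, which were in 13.0%, 1.5% and 3.2% of all windows. A match is a description of the letters and was not tested for binding.

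All values are the deposited normalized read counts: reads per gene, scaled across libraries by the authors and then rounded. Library totals ran from 17751754 to 26209153. Reads per library, estimated from the step between low values, ran from 12.0 M to 24.3 M, with freshly isolated replicate 1 the shallowest. The landmarks of the stages followed the labels: Pax7, the satellite cell factor, was highest in freshly isolated libraries (11694 to 15700), Mki67, a proliferation marker, in proliferating ones (22495 to 25457) and Myh3, embryonic myosin, in myotubes (296158 to 335321). Mki67 was still 7550 to 13203 in the myotube libraries. Myog, a differentiation factor, stood at 2179 in proliferating replicate 1 against 9530 and 8749 in the others, and Myh3 at 3055 against 23038 and 15385. Freshly isolated replicate 1 also stood apart, with Myog at 1257 against 62 and 218 and Mki67 at 471 against 66 and 163. Markers of other cells moved with the stages too. The sum of 7 fibro-adipogenic or fibroblast markers was 2579 to 3683 in freshly isolated and 24 to 37 in proliferating cells, nearly all of it Dpt (2449 to 3554), while the defining markers Pdgfra and Ly6a stood at 4 to 9 and 0 to 6 in freshly isolated cells. Of 4 such markers tested 3 (Dpt, Pi16 and Cxcl14) were called lower in proliferating cells. Pdgfra went against the sum and was higher in proliferating cells, at 13 to 22 (log2 change 1.47, limma adjusted p = 0.0078). The sum of 6 leukocyte markers was 662 to 689 in freshly isolated, 65 to 89 in proliferating and 246 to 260 in myotube libraries, mostly Cd68 in the first 2 stages and Itgam in myotubes, with the pan-leukocyte gene Ptprc at 0 to 14 in freshly isolated and 0 to 2 in myotube libraries. Sums of 6 endothelial markers were 127 to 244, 90 to 123 and 103 to 133, which hides opposite courses. Pecam1 had means of 114, 34.3 and 11 in the 3 stages and Cdh5 of 34.3, 1.33 and 1.33. Vwf had means of 28, 37 and 98.3 and made up most of the sum in myotubes. Sums of 5 Schwann cell markers were 213 to 303, 93 to 98 and 59 to 99. Sums of 6 pericyte or smooth muscle markers were 1087 to 1413, 1789 to 2297 and 1960 to 2282. Most of it was Cspg4 in proliferating cells (1625 to 2123) and Abcc9 in myotubes (1420 to 1751). From freshly isolated to proliferating cells 3 of these 6 (Rgs5, Kcnj8 and Abcc9) were called lower and 1 (Cspg4) higher, with a median log2 change of -1.84. The sum of 4 tenocyte markers rose at each step, at 217 to 282, 1595 to 1850 and 3201 to 4167. In the last 2 stages nearly all of it was Scx, with Tnmd at 0 in each library of those stages. Mkx went against the sum and was lower in myotubes (59 to 74) than in freshly isolated cells (95 to 144). The part of such cells in the results below was not tested, and in bulk samples fewer cells of a type and less RNA per cell cannot be told apart.

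**Figure D1:**
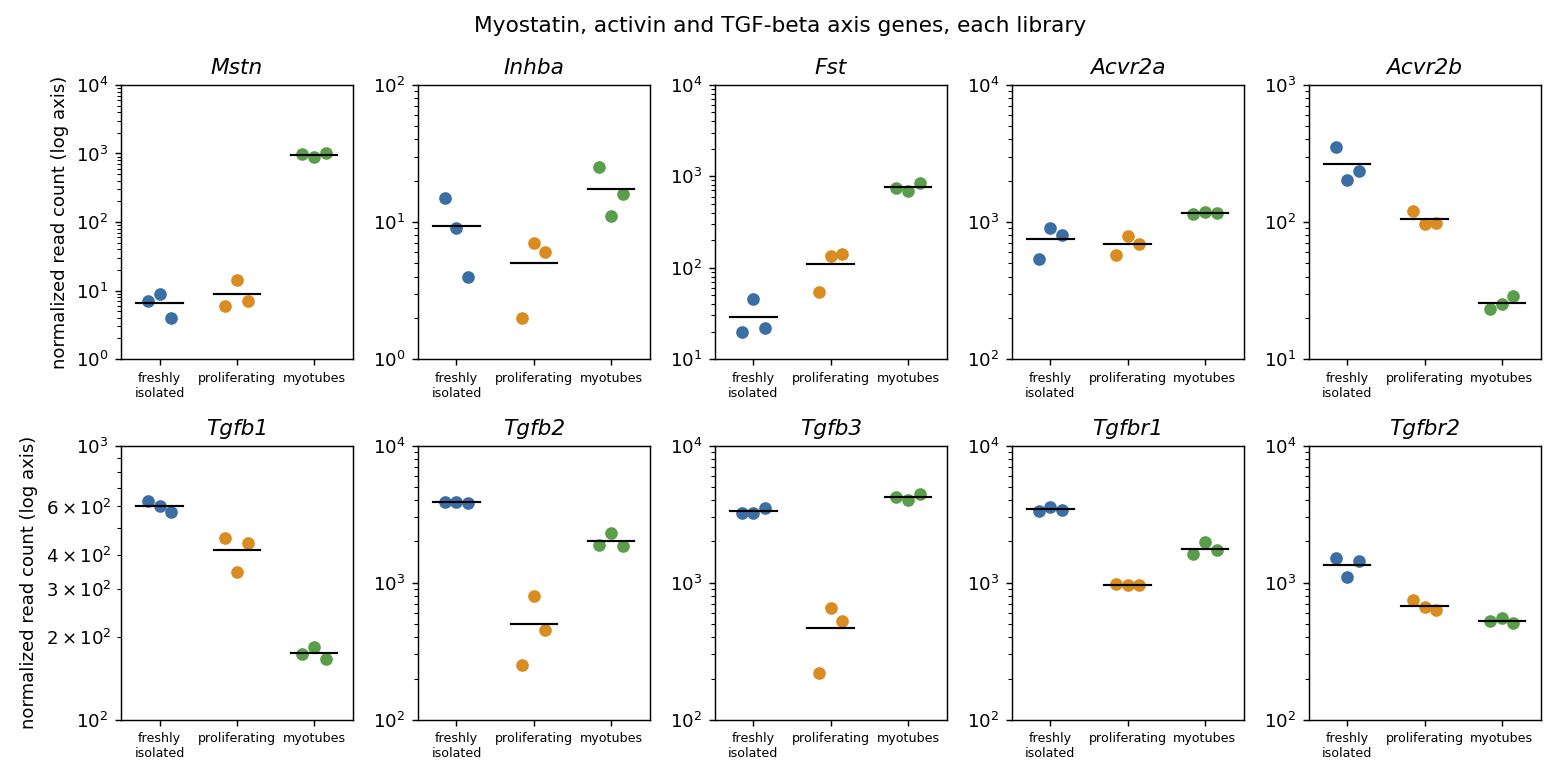
Normalized read counts (log axis) of the 10 genes in each library by stage; points are libraries in the order of replicates 1, 2 and 3, and bars are means of 3 libraries. Mstn and Fst were highest in myotubes, Acvr2b, Tgfb1 and Tgfbr2 fell at each step, and Tgfb2, Tgfb3 and Tgfbr1 were lowest in proliferating cells.

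Changes and their SE come from limma, fitted to log2(value + 1) of 17291 genes, and p-values were adjusted over all of these by the Benjamini-Hochberg method. A gene is called at an adjusted p below 0.05. Between freshly isolated and proliferating cells 6 of the 10 genes were lower and 1 higher, where 35.7% of all genes tested were lower and 37.6% higher (73.3% in either direction). From proliferating cells to myotubes 7 were higher and 3 lower, with 28.6% of all genes higher and 25.5% lower (54.1% in either direction). In myotubes against freshly isolated cells 3 were higher and 5 lower, against 40.2% and 37.3% of all genes (77.6% in either direction). The 3 comparisons share libraries, so their counts are not independent of each other. Since Mstn and Inhba entered the test through their high myotube values, the 7 higher in myotubes are a description that the filter helped to set.

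**Figure D2:**
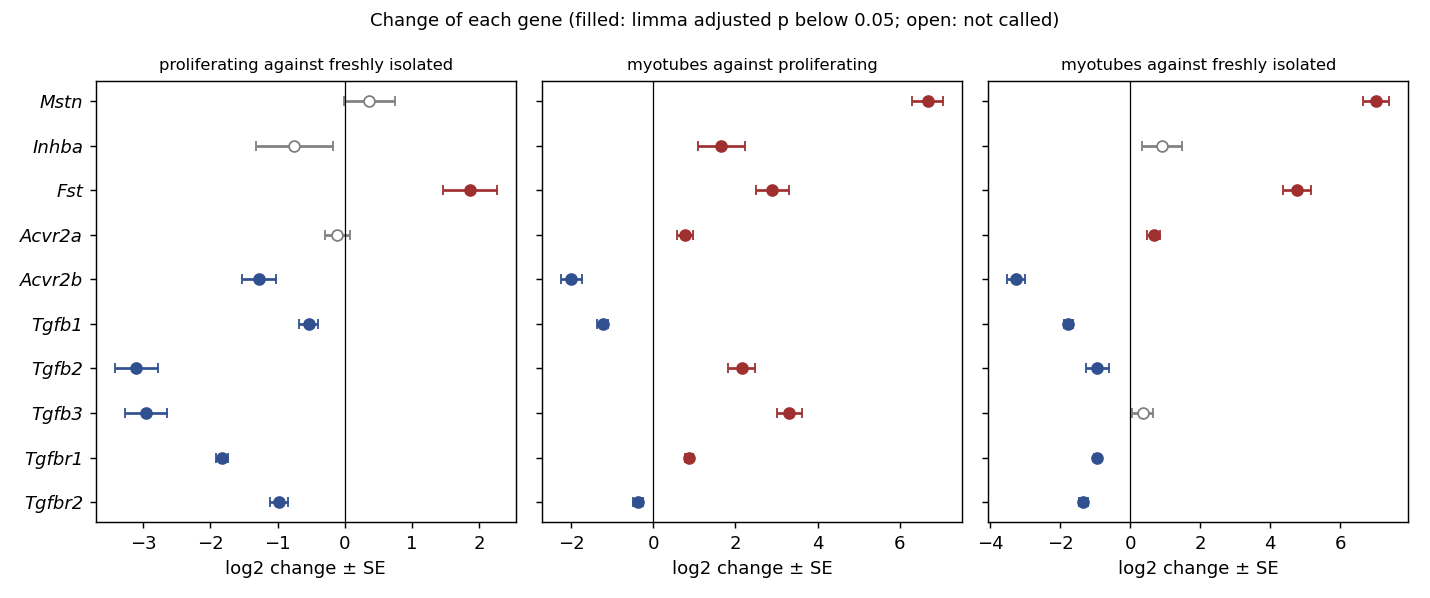
Log2 change ± SE (limma, 3 libraries per stage) of the 10 genes in the 3 comparisons; filled points passed an adjusted p of 0.05, open points did not. Mstn had the largest change among the 10, 6.67 against proliferating and 7.03 against freshly isolated cells.

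Among the ligands, Mstn was a myotube gene. It stood at 7, 9 and 4 in the freshly isolated libraries, at 6, 14 and 7 in the proliferating ones and at 988, 895 and 1003 in myotubes. The first 2 stages overlapped and the third lay far above both. The low values rested on an estimated 3 to 19 reads per library, and those of myotubes on 1048 to 1069. Mstn rose 102-fold from proliferating cells to myotubes (log2 change 6.67 ± 0.38, adjusted p = 1.06e-06 by limma), and without any 1 library the log2 change stayed between 6.46 and 7.01. Mstn and Inhba passed the filter through their myotube values, so the p-values of their rises are a description. Between freshly isolated and proliferating cells the change of Mstn was 0.36 ± 0.38 (limma adjusted p = 0.412), and 1.06 (adjusted p = 0.038) after quantile normalization of the log2 values.

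Inhba, which encodes the activin A subunit, was close to the limit of detection throughout. Its values were 15, 9 and 4 in freshly isolated, 2, 7 and 6 in proliferating and 25, 11 and 16 in myotube libraries, from an estimated 2 to 27 reads. Myotubes lay above proliferating cells in every library, and freshly isolated libraries overlapped with both. The rise to myotubes had a log2 change of 1.66 ± 0.57 (limma adjusted p = 0.032). Leaving out proliferating replicate 1 (1.22, adjusted p = 0.119), myotube replicate 1 (1.37, 0.122) or myotube replicate 3 (1.68, 0.0778) ended that call, as did testing without the filter (0.0764).

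Tgfb2 and Tgfb3 followed a different course, with a low point in dividing cells. Tgfb2 was 3883, 3895 and 3788 in freshly isolated, 251, 802 and 451 in proliferating and 1886, 2304 and 1854 in myotube libraries. Tgfb3 was 3235, 3224 and 3502, then 221, 659 and 530, then 4238, 4043 and 4425. For both genes the proliferating libraries were the lowest and the most scattered, with replicate 1, the library low in Myog, at the bottom. What the stage of that library adds to these values was not tested. In all, 6 of the 10 genes were lowest in replicate 1 among the proliferating libraries, as were 35.3% of all genes tested. In culture Tgfb2 fell 8.56-fold (log2 change -3.10 ± 0.32, limma adjusted p = 1e-05) and Tgfb3 fell 7.77-fold (-2.96 ± 0.31, adjusted p = 1.22e-05). In myotubes Tgfb2 rose 4.45-fold (2.15 ± 0.32) and Tgfb3 9.92-fold (3.31 ± 0.31, adjusted p = 1.4e-05). Without proliferating replicate 1 the rises were still called, and over all left-out libraries their log2 changes ranged from 1.74 to 2.57 and from 2.84 to 3.62.

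The end points of these genes differed. Myotubes held less Tgfb2 than freshly isolated cells (log2 change -0.94 ± 0.32, limma adjusted p = 0.0205), which did not stay called when myotube replicate 1 (adjusted p = 0.057) or 3 (0.0606) was left out. Tgfb3 was 1.28-fold higher in myotubes than in freshly isolated cells, and all 3 myotube libraries lay above the freshly isolated ones. With the spread shared over 9 libraries this was not called (0.35 ± 0.31, adjusted p = 0.327). Fitted on the 6 libraries of those stages alone, or without proliferating replicate 1, the same change had adjusted p = 0.00622 and 0.00978.

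Tgfb1 fell at both steps. It was 627, 602 and 574 in freshly isolated, 459, 345 and 441 in proliferating and 174, 185 and 167 in myotube libraries, with no overlap between stages. The first step was a 1.46-fold fall (log2 change -0.54 ± 0.14, limma adjusted p = 0.00447) and the second a 2.34-fold one (-1.23 ± 0.14, adjusted p = 3.66e-05). With all libraries brought to the same total, the first fall was -0.24 and not called (adjusted p = 0.207). That scaling moved the median change of all genes by 0.30 in this comparison and by -0.17 and 0.13 in those of myotubes with proliferating and with freshly isolated cells, and quantile normalization moved the medians by 0.10, -0.13 and -0.04. Smaller changes are therefore relative to the deposited scaling.

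The antagonist gene Fst rose at each step. Its values were 20, 45 and 22 in freshly isolated, 54, 135 and 141 in proliferating and 743, 696 and 844 in myotube libraries, again without overlap and with the lowest proliferating value in replicate 1. Fst rose 3.63-fold with culture (log2 change 1.86 ± 0.40, limma adjusted p = 0.00171) and a further 7.44-fold in myotubes (2.90 ± 0.40, adjusted p = 0.000155). So both the myostatin gene and the gene of its inhibitor were highest in myotubes, 27-fold above freshly isolated cells for Fst and 131-fold for Mstn.

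The type II activin receptor genes moved apart. Acvr2a was 538, 907 and 802 in freshly isolated, 573, 788 and 695 in proliferating and 1138, 1186 and 1172 in myotube libraries. Myotubes stood clear of the other stages, which overlapped. Acvr2a rose 1.71-fold from proliferating cells to myotubes (log2 change 0.78 ± 0.19, limma adjusted p = 0.00512), and its change before that was -0.11 ± 0.19 (adjusted p = 0.62). With equal library totals the rise was 0.60 and not called (adjusted p = 0.0695), and without freshly isolated replicate 1 the earlier change was -0.33 and called (adjusted p = 0.0371). Against freshly isolated cells the rise was 0.67 ± 0.19 (adjusted p = 0.00707), not called after quantile normalization (0.41, adjusted p = 0.0598).

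Acvr2b, whose product binds the same ligands, went down instead. Values of 351, 202 and 236 in freshly isolated libraries were followed by 120, 97 and 98 in proliferating and 23, 25 and 29 in myotube libraries. The stages did not overlap. Acvr2b fell 2.43-fold and then 3.97-fold (log2 changes -1.28 ± 0.25 and -1.99 ± 0.25, limma adjusted p = 0.000972 and 8.9e-05), 9.67-fold in all.

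The TGF-beta receptor genes also parted in myotubes. Tgfbr1, the signalling type I receptor, was 3342, 3589 and 3405 in freshly isolated, 971, 956 and 968 in proliferating and 1617, 1976 and 1735 in myotube libraries. It fell 3.57-fold with culture (log2 change -1.83 ± 0.09, limma adjusted p = 5.09e-08) and rose 1.83-fold in myotubes (0.87 ± 0.09, adjusted p = 2.37e-05), to a level still below that of freshly isolated cells (-0.96 ± 0.09). Tgfbr2, the ligand-binding type II receptor, was 1506, 1110 and 1443, then 749, 662 and 635, then 522, 552 and 510. Its libraries did not overlap between stages. Tgfbr2 fell 1.97-fold with culture (-0.98 ± 0.13, adjusted p = 5.94e-05). The further fall in myotubes was small, -0.37 ± 0.13 (adjusted p = 0.0349). It was no longer called when proliferating replicate 1 (adjusted p = 0.118) or 2 (0.0653) or any 1 myotube library (0.0545 to 0.0994) was left out. The same held without the filter on low values (0.0642) or without limma's mean-variance trend (0.0679).

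Levels of different genes can be compared only per length, and were divided by the exon length of each gene in kilobases. In freshly isolated cells the order was Tgfb3 (981 ± 46.5 normalized reads per kb, SD, n = 3), Tgfb2 (666 ± 10.4), Tgfbr1 (527 ± 19.7), Tgfbr2 (165 ± 25.7), Acvr2a (132 ± 33.6), Tgfb1 (119 ± 5), Acvr2b (67 ± 19.9), Fst (6.32 ± 3.03), Mstn (2.47 ± 0.931) and Inhba (1.46 ± 0.863). Tgfbr2, Acvr2a and Tgfb1 overlapped as neighbours there, as did Mstn and Inhba. In proliferating cells the first 6 genes, from Tgfbr1 (148 ± 1.53) and Tgfb3 (139 ± 66.7) to Tgfb1 (82.3 ± 12.2), each overlapped with the next. Myotubes had Tgfb3 at the top (1252 ± 56.5), then Mstn (356 ± 21.6) and Tgfb2 (348 ± 43.4), whose libraries overlapped, then Tgfbr1 (272 ± 27.9), Acvr2a (205 ± 4.58) and Fst (166 ± 16.4). Tgfbr2 (64.5 ± 2.62), Tgfb1 (34.8 ± 1.81), Acvr2b (6.53 ± 0.775) and Inhba (2.71 ± 1.11) closed the order, each clear of the next with this divisor. The order of neighbours depends on the length used. With the longest transcript as the divisor, Tgfb1 (234) stood above Tgfbr2 (167) in freshly isolated cells. In myotubes Fst (261) then stood above Acvr2a (205).

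**Figure D3:**
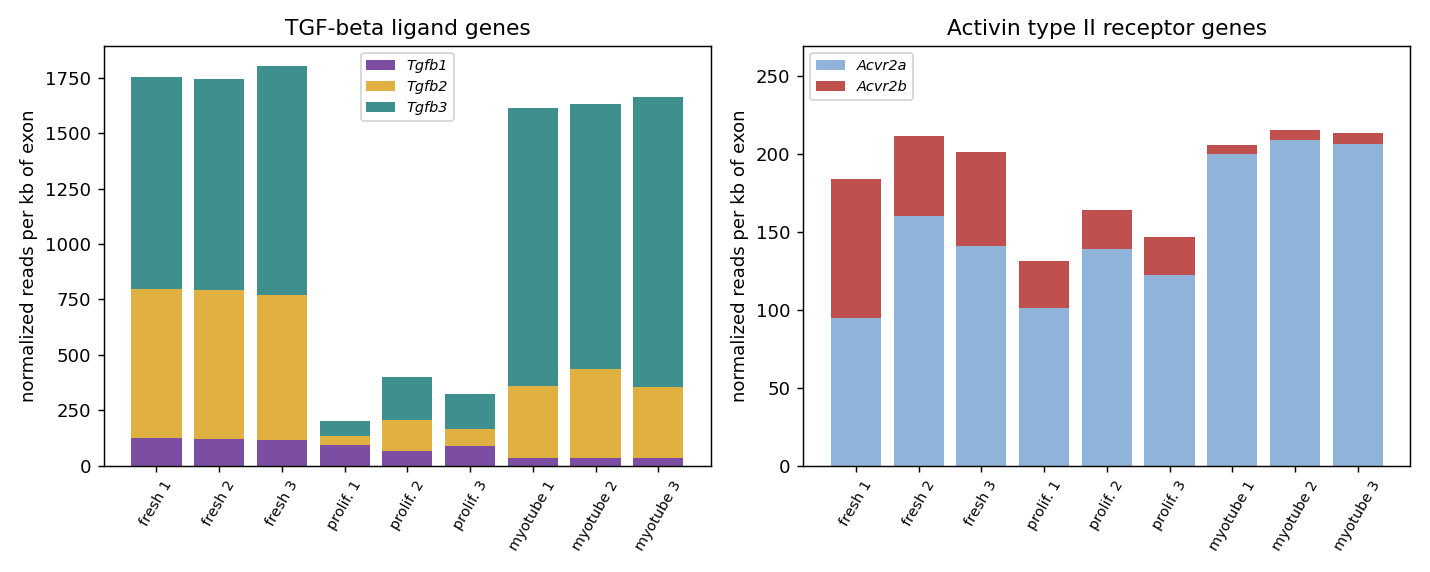
Normalized reads per kb of exon in each library, stacked for the 3 TGF-beta ligand genes (left) and the 2 type II activin receptor genes (right). The ligand total was 200 to 402 in proliferating libraries and at least 1613 in all others, and Acvr2b shrank to a thin band in myotubes.

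The makeup of the ligand pool therefore shifted with the stage. Tgfb1 made up 7.1%, 6.84% and 6.31% of the summed TGF-beta ligand level per kb in freshly isolated libraries, 45.6%, 17% and 27.2% in proliferating ones and 2.14%, 2.25% and 1.99% in myotubes. The sum itself was 1745 to 1803, 200 to 402 and 1613 to 1661. Acvr2b made up 48.6%, 24.4% and 29.9% of the 2 type II activin receptor genes in freshly isolated, 23.3%, 15.1% and 17% in proliferating and 2.84%, 2.96% and 3.46% in myotube libraries. Fst stood above Mstn in freshly isolated cells (a ratio of 1.68 to 3.24 per kb) and in proliferating cells (5.31 to 11.9), and below it in myotubes (0.443 to 0.496). The ratio of Tgfbr1 to Tgfbr2 per kb was 2.78 to 4.05 in freshly isolated, 1.62 to 1.91 in proliferating and 3.88 to 4.49 in myotube libraries. Freshly isolated and myotube libraries overlapped in that ratio. None of the other quantities overlapped between stages, though the Fst to Mstn ratios before myotubes rest on the few Mstn reads given above. An exact two-sided permutation test gave p = 0.1 for each of these others, the smallest value that 3 against 3 libraries allow. That value follows from the lack of overlap and adds no support to it. With the longest transcript as the divisor Tgfb1 took 27.6% to 60.9% of the pool in proliferating cells, and the Fst to Mstn ratio in myotubes was 0.696 to 0.779.

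The wider pathway was read from 7 lists of its genes. Their counts stand beside 37.6% of all genes higher and 35.7% lower with culture, and 28.6% higher and 25.5% lower in myotubes. Genes of the ligand lists other than the 10 moved in both directions. Gdf11, the closest relative of Mstn, rose at each step, from 392 ± 46.1 to 1042 ± 63.2 and 2925 ± 232 (SD, n = 3), with log2 changes of 1.41 ± 0.11 and 1.49 ± 0.11 (limma adjusted p = 1.43e-06 and 3.84e-06). Inhbb, the activin B subunit, fell from 885 ± 147 to 438 ± 90.4 and 243 ± 47.9 (-1.02 ± 0.21 and -0.84 ± 0.21). Inha, the inhibin alpha subunit, was 22.3 ± 2.08 in freshly isolated cells and 107 ± 40.6 in myotubes (2.14 ± 0.40, adjusted p = 0.000614).

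Of 10 receptor and co-receptor genes tested, 4 of the 10 axis genes among them, 8 were lower and 1 higher in proliferating than in freshly isolated cells, with a median log2 change of -1.56 beside 0.07 over all genes. In the step to myotubes 4 were higher and 3 lower, with a median of 0.18 beside 0.04. The steepest fall was that of Tgfbr3, betaglycan, which presents TGF-beta2 to its receptors. It stood at 32449, 29101 and 31356 in freshly isolated libraries, 63, 56 and 30 in proliferating and 70, 49 and 44 in myotube ones (log2 change -9.32 ± 0.26, limma adjusted p = 1.39e-09). Its change in myotubes was not called (0.17 ± 0.26, adjusted p = 0.62). Bambi, a decoy receptor, fell from 442 ± 78.5 to 38 ± 12.3, and Eng, endoglin, from 357 ± 63.8 to 84.7 ± 10.7. Cd109, a TGF-beta co-receptor that limits signalling, rose from 147 ± 69.2 to 313 ± 54.6 and to 1280 ± 113 in myotubes.

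Of 9 extracellular antagonists tested, 6 were lower and 3 higher with culture (median -2.04), and 4 were higher and 1 lower in myotubes (median 1.03). The follistatin-like genes fell in culture, where Fst rose. Fstl1 fell from 6680 ± 1137 to 1553 ± 12.7 (log2 change -2.09 ± 0.13, limma adjusted p = 2.19e-07) and Fstl3 from 191 ± 70.5 to 34.3 ± 7.64 (-2.39 ± 0.33, adjusted p = 8.83e-05). Dcn, the proteoglycan decorin that binds TGF-beta, was 405, 840 and 1006 in freshly isolated and 2, 1 and 0 in proliferating libraries. Decorin is also a fibroblast product. The fibroblast marker sum was lower in proliferating cells, mostly through Dpt. Of 4 such markers tested 3 (Dpt, Pi16 and Cxcl14) were lower and 1 (Pdgfra) higher, and the part of such cells was not tested.

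Of 14 tested genes listed under TGF-beta latency and activation, 8 were lower and 3 higher with culture (median -0.56), a share called near the 73.3% of all genes. In myotubes 9 were lower and 2 higher (median -1.06). Ltbp4, a latent TGF-beta binding protein, fell from 26805 ± 7332 to 326 ± 39.8 (log2 change -6.33 ± 0.19, limma adjusted p = 2.37e-09) and again to 144 ± 28.3. Thbs1, thrombospondin 1, an activator of latent TGF-beta, peaked in proliferating cells. It was 2784, 1985 and 2097, then 27340, 28960 and 26562, then 2726, 2883 and 2327 (3.61 ± 0.13 and -3.39 ± 0.13). Ltbp2, a relative of Ltbp4 whose binding of TGF-beta was not examined, peaked in the same way, at 203 ± 43.8 between 37 ± 11 and 27 ± 4.58. Itgb6, the integrin subunit of another activator, rose from 2, 33 and 25 in freshly isolated to 673, 1320 and 1192 in proliferating libraries. Its log2 change was 6.20 ± 0.74. The value moved to 5.10 or 6.85 when freshly isolated replicate 1 or 2 was left out. Myotubes held 3649, 3555 and 3494, above every proliferating library, a change that was not called with the spread of all stages (1.81 ± 0.74, limma adjusted p = 0.0611). On the libraries of those 2 stages alone, or without freshly isolated replicate 1 or 2, Itgb6 was called higher in myotubes (adjusted p = 5.05e-05, 2.18e-05 and 0.0382).

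Of 15 Smads and regulators tested, 9 were lower and 1 higher with culture (median -0.43), fewer called than the 73.3% of all genes, and 10 were lower and 3 higher in myotubes (median -0.60). In myotubes against freshly isolated cells 13 of the 15 were lower and 1 higher (median -1.37 beside 0.10 over all genes). The shares of all genes called there were 37.3% lower and 40.2% higher. Median changes there were -1.43 for receptors (8 lower, 2 higher), -1.36 for antagonists (5 and 4) and -1.25 for latency genes (9 and 1). TGF-beta ligands had a median of -0.94 (2 lower, 0 higher). Target genes (1.33, 6 lower, 9 higher) and activin and myostatin ligands (2.14, 1 lower, 3 higher) had positive medians. Smad3, the receptor-activated transcription factor, followed Tgfb2 and Tgfb3. Its values were 3689, 3632 and 3836 in freshly isolated, 312, 460 and 379 in proliferating and 1082, 1043 and 1239 in myotube libraries (log2 changes -3.29 ± 0.14 and 1.56 ± 0.14, limma adjusted p = 1.65e-08 and 8.42e-06). Its partner Smad2 was 947 ± 196, 925 ± 66.5 and 988 ± 67.2. The feedback inhibitor genes Smad7 and Pmepa1, which TGF-beta itself induces, were lowest in myotubes. Smad7 was 3166, 2806 and 2501, then 2721, 1725 and 1918, then 267, 297 and 232, with a log2 change of -2.97 ± 0.17 in the last step (adjusted p = 1.17e-06). Its earlier fall, counted among the 9 Smads and regulators lower with culture, was -0.43 ± 0.17 (adjusted p = 0.0418) with overlapping libraries. It was not called without the filter (0.065), with equal totals (-0.13, 0.529), after quantile normalization (0.0932), without the trend (0.081), on 2 stages only (0.0596), or without freshly isolated replicate 1 or 2, proliferating replicate 2 or 3 or myotube replicate 1 (0.0568 to 0.164). Pmepa1 fell from 8778 ± 1087 to 2097 ± 374 and 783 ± 43.6. Tgif1, a Smad corepressor, fell from 10533 ± 1190 to 1672 ± 280 and 727 ± 32.4.

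**Figure D4:**
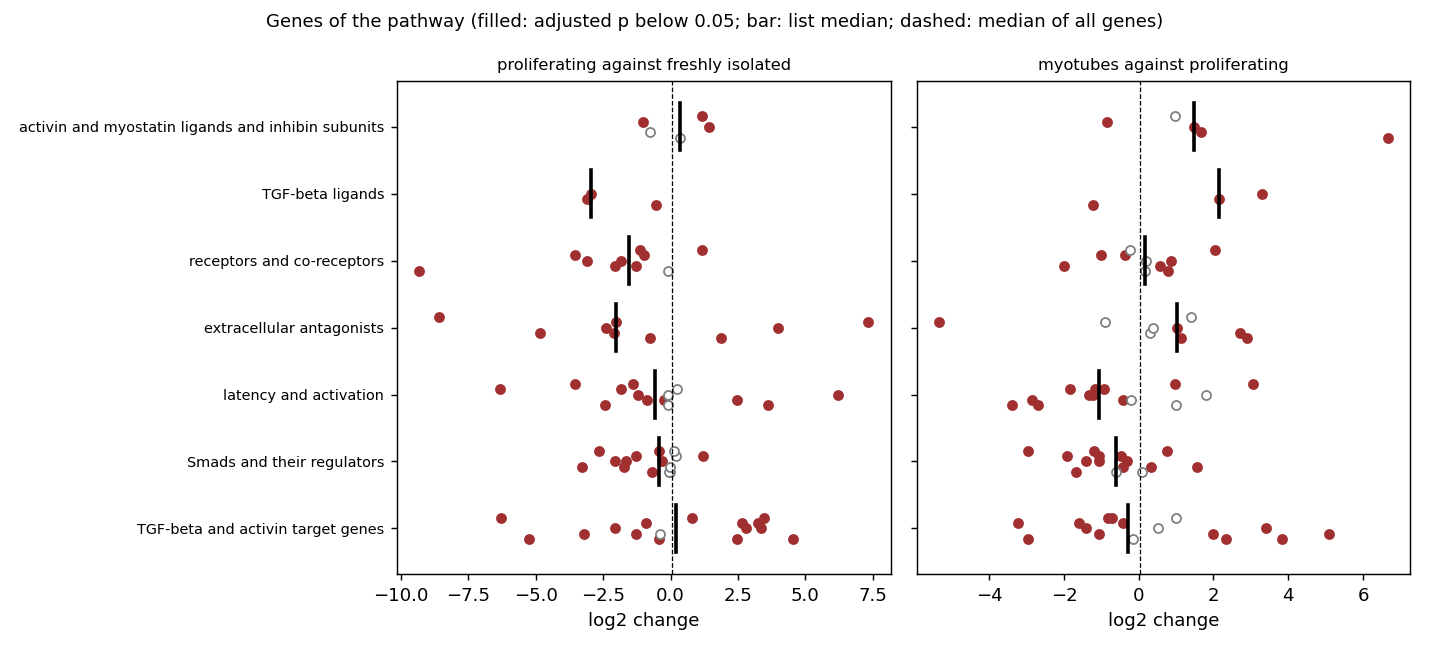
Log2 change of each tested gene in the 7 pathway lists, for proliferating against freshly isolated cells (left) and myotubes against proliferating cells (right); filled points passed an adjusted p of 0.05, short bars are list medians and the dashed line is the median of all genes. In the left panel the receptor median lay at -1.56, and in the right panel the list of Smads lay at -0.60.

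Usual target genes of TGF-beta and activin did not move as 1 group. Of 16 tested, 8 were higher and 7, Smad7 among them, lower with culture (median 0.20), and 5 were higher and 8 lower in myotubes (median -0.28). Ctgf, the matricellular growth factor, fell from 4863 ± 119 to 135 ± 69.5 with culture and was 112 ± 19.1 in myotubes. Postn and both type I collagen genes rose in myotubes. Postn, periostin, rose from 8 ± 4.58 to 203 ± 80.5 and 2711 ± 136 (log2 changes 4.54 ± 0.39 and 3.82 ± 0.39, limma adjusted p = 2.36e-06 and 2.08e-05), and the collagen gene Col1a2 from 90.7 ± 61.7 to 577 ± 231 and 5728 ± 586. Without freshly isolated replicate 1 and proliferating replicate 1 their rises in culture were 5.28 and 3.70. The partner collagen gene Col1a1 had a low point in proliferating cells, at 206 ± 87.6, 20.3 ± 5.86 and 708 ± 110 (-3.23 ± 0.30 and 5.08 ± 0.30). Fibroblast markers in myotubes summed to 32 to 39, with Pdgfra at 12 to 17. Of the tenocyte markers Scx rose along with Postn and Col1a2, from 92 to 118 over 1495 to 1753 to 3104 to 4071. The others did not follow it. Mkx was lower in myotubes than in freshly isolated cells (log2 change -0.93 ± 0.23, limma adjusted p = 0.00381). Tnmd was at 0 in every cultured library, and Thbs4 was not called in any comparison. The part of such cells in these values was not tested. The lists share Smad7, Skil and Pmepa1, and their genes were chosen with earlier results of these data known.

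Genes with the most similar course were sought for the 9 members that reached a mean of 100 in some stage, by Pearson correlation of log2 values over the 9 libraries among 10851 protein-coding genes. The libraries share their stages, so high values are common and are given as a description. Closest to Mstn were Frem2 (r = 0.997), Itgam (0.996) and Usp47 (0.996), and 409 genes reached at least 0.95. Frem2, a basement membrane gene, was at 5.33, 6.33 and 392 in the 3 stages. Fst was matched by Acsl3 (0.995), Igf2 (0.995) and Zfp110 (0.993), with Igf2, insulin-like growth factor 2, at 3031, 11375 and 77272. For Tgfb2 they were Ccng2 (0.993), the Notch target Heyl (0.992) and Palmd (0.986), and for Tgfb3 they were Pgm5 (0.999), Arhgef6 (0.994) and Igf1 (0.99). Heyl stood at 6071, 252 and 1518, and Pgm5 at 2019, 167 and 2711. Tgfb1 went with Vegfc, Polg and Crim1 (0.997 to 0.995), Tgfbr1 with Scn7a, Rtl1 and Oxtr (0.998 to 0.995) and Tgfbr2 with Aoc2, Shc2 and Ptprs (each 0.991). Acvr2b went with Gigyf1, Kmt2d and Cic (0.998 to 0.995). Acvr2a had the loosest matches, Acad11 (0.975), Pdpk1 (0.972) and Lmod1 (0.972), and only 24 genes reached 0.95.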

How the data were processed

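RNA of 3 samples per stage was sequenced after ribosomal depletion of 100 ng total RNA and stranded library preparation, per the labels' protocols. Per the submitters' processing notes, STAR 2.4.0a, featureCounts 1.4.5-p1 and the builds mm10 and GRCm38 were used. The score values analysed are gene read counts that the authors scaled between libraries and rounded before they deposited them, with no scaling tool named in the sources. The columns prefixed Q were taken as freshly isolated, since P and D match the other stages. A count test had been foreseen for raw counts; because the values are scaled it was not used, and depth was estimated from the spacing of low values.

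The 17291 of 45706 genes that reached 10 in 3 or more libraries were put on the log2(value + 1) scale and compared in 1 limma model over 9 libraries with a mean-variance trend, tested beforehand on simulated data. Calls used a Benjamini-Hochberg adjusted p below 0.05. The members and lists were chosen with earlier results of these data known. Named genes were the members, stage landmarks, up to 4 genes per pathway list with the largest called change, no overlap and a mean of at least 100, and the 3 best correlated genes per member. Smad2 and single marker genes were added after their values were seen. Results for some withheld genes are not reported here. Alternatives covered pseudocount, filter, scaling, trend, samples and a replicate block. Lengths came from GENCODE vM21 and promoters from RefSeq (GRCm38.p6). Software was R 4.3.3, limma 3.58.1, Python 3.11.15, pandas 2.3.3, numpy 2.4.6 and matplotlib 3.10.9.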

Additional observations from a re-analysis of the deposited data

How the results depend on the processing

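Over the alternatives, the counts of all genes called stayed within 1.5 times those given, and of 597 log2 changes of the 10 genes under other settings 569 kept direction and side of the threshold. After quantile normalization 2 of the 10 genes were called higher in proliferating than in freshly isolated cells, Mstn being added, and without freshly isolated replicate 1 and proliferating replicate 1 together 5 were called higher in myotubes than in freshly isolated cells, with Inhba and Tgfb3 added. Among the 10 genes and the pathway genes named by rule, directions turned for changes that were not called. For proliferating against freshly isolated cells these were Inhba (0.08 without those 2 libraries) and Acvr2a (0.20 with equal totals, and -0.33 to 0.05 over single left-out libraries). For myotubes against proliferating cells they were Tgfbr3 (-0.00 with equal totals, -0.13 after quantile normalization, -0.15 to 0.37 over left-out libraries) and Ctgf (0.23 without the 2 libraries, -0.40 to 0.23 over left-out libraries), and for myotubes against freshly isolated cells Ltbp2 (0.05 after quantile normalization). Of other genes examined, left-out libraries turned the direction of several, of which some are given here, none of them called. In proliferating against freshly isolated cells these were Smad2 (-0.20 to 0.08), the muscle landmark Ckm (-0.34 to 0.99), Itgam (-0.20 to 0.55) and Usp47 (-0.08 to 0.07). Ltbp1 (-0.18 to 0.02), Smurf1 (-0.11 to 0.04), Smurf2 (-0.12 to 0.03) and Frem2 (-0.00 to 0.66) turned there too. Smad2 (-0.10 to 0.18) and Snai2 (-0.08 to 0.09) turned in myotubes against freshly isolated cells, and Acvrl1 (-0.11 to 0.48) in myotubes against proliferating cells. The cause was not tested. No pairing of the libraries by replicate number was seen, though the check could miss a weak one. Deviations of the 9 same-numbered pairs correlated between -0.034 and 0.027, and 5 of 18 best matches had the same number. With a replicate block 6 of the 10 genes rather than 7 were called higher in myotubes than in proliferating cells, Inhba being lost (log2 change 1.66, adjusted p = 0.0554), and no other call among the 10 changed. The block also called the rise of Itgb6 in myotubes (1.81, adjusted p = 0.0309), as did a pseudocount of 4 (0.0172), quantile normalization (0.0185) and leaving out both libraries that stood apart (1.21e-06), beside the settings given above. The filter of 50 left Inhba untested. With the longest transcript as the divisor, levels per kb were 261 for Fst, 234 for Tgfb1, 754 for Tgfb2 and 599 for Tgfbr1 at their highest stage. Depth limits Inhba at every stage and Mstn before myotubes.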
